A study of Mus musculus with 10 samples.

Results

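The genes described here are 9 components of the Hedgehog pathway, Ptch1, Gli1, Gli2, Gli3, Smo, Sufu, Hhip, Boc and Cdon, out of 22713 gene IDs measured by mRNA-sequencing in mouse embryonic stem (ES) cells. Their symbols were matched to the Ensembl IDs of the deposited tables, and all 9 were found. The set was selected on the values of Ptch1, which fell in steps after Pontin depletion, so those Ptch1 values are given as a description without a test. Pontin (Ruvbl1) is an ATPase of chromatin-remodelling complexes, and the study asked how it and the transcription factor Oct4 (Pou5f1) control gene expression in ES cells.

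The mRNA-sequencing comprised 8 libraries. Pontinf/f; CreER ES cells came from blastocysts of crosses between floxed mice with and without the CreER transgene, and 4-hydroxy tamoxifen (OHT) lets Cre delete the floxed Pontin alleles. Untreated cells (WT), cells at 3 days after OHT (OHT 3D) and cells at 4 days after OHT (OHT 4D) gave 1 library each. ZHBTc4 ES cells, a different line in which tetracycline (Tc) shuts off Oct4, gave 1 library at 2 days after Tc (Tc 2D). ZHBTc4 cells at 4 days after infection gave 2 libraries with a pLKO control lentivirus and 2 with a pLKO lentivirus against linc1253, a long non-coding RNA. Untreated ZHBTc4 cells gave 1 chromatin immunoprecipitation (ChIP) library each with anti-Pontin and with anti-GFP, the control. Cultures were kept with or without mouse embryonic fibroblast feeders, and the sources used here do not say which libraries had them.

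Hedgehog signalling is held off by Ptch1, the receptor that keeps the membrane protein Smo inactive until a ligand such as Shh binds Ptch1. Active Smo, which moves into the primary cilium, releases the Gli transcription factors from Sufu. Gli1, Ptch1 and Hhip are themselves transcribed in response to the signal, and Ptch1 and Hhip then damp it, whereas Boc and Cdon are cell surface co-receptors that help ligands reach Ptch1.

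Because Ptch1 led to the choice of the set, its upstream sequence is shown first. The Gli binding consensus GACCACCCA was searched on both strands in the promoter window of every protein-coding gene, spanning 2.5 kb of upstream sequence and the first 500 b of the gene in NCBIM37. It was found in 556 of 22367 promoters (2.49%) and in 1 of the 9 Hedgehog genes, Ptch1. The gene model of Ptch1 (ENSMUSG00000021466) spans chr13:63610261-63674474 on the minus strand. The match in its promoter lies outside annotated exons, with its first base at position -307 from the gene start. A further match, on the opposite strand, lies in an intron of the gene model, at position -923 from the start of the Ptch1 transcript that has an entry in the consensus coding sequence set (CCDS). Both stretches are printed 5′ to 3′ on the strand of Ptch1, with the match, or its reverse complement TGGGTGGTC, in capitals. They are chr13:63674713-63674841 and chr13:63667683-63667811.
Ptch1 gene start: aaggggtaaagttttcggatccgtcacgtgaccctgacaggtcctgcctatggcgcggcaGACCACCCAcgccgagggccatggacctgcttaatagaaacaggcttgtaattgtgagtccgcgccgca
Ptch1 CCDS start: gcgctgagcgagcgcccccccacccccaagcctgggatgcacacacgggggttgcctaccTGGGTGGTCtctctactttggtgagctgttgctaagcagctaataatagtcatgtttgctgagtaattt
The octamer ATGCAAAT, a sequence that Oct4 can bind, was found in 14.6% of all promoters and in 0 of the 9. A match to the octamer lay at position -1369 from a further annotated Ptch1 transcript start. A match or its absence describes the letters in this window, not the binding of a factor.

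Reads on genes ranged from 17187595 to 37951742 per library. WT, OHT 3D, OHT 4D and Tc 2D were deposited in 1 table and the 4 lentivirus libraries in another, taken here as normalized separately, and the study's alignment summary places them on different sequencers, so levels across the tables are only set side by side. Pontin mRNA followed its label, with a normalized read count (CPM, reads scaled to library size) of 198 in WT against 33.3 (OHT 3D) and 50.9 (OHT 4D). Pontin mRNA was also lower in the single Oct4-depleted library, at 85.0 CPM at Tc 2D beside 166 and 186 CPM in the ZHBTc4 control libraries. By quantitative RT-PCR and immunoblot, however, the study reports that Oct4 depletion did not significantly change Pontin mRNA or protein. Oct4 mRNA was 301 CPM in WT, 296 and 347 after OHT, and 21.1 at Tc 2D. In the ZHBTc4 control libraries Oct4 was 642 and 582 CPM. A log2-fold-change is that of CPM plus 1, over the 13449 genes above 1 CPM in at least 1 of WT, OHT 3D, OHT 4D and Tc 2D, and a change is called past an absolute value of 0.58. All 9 Hedgehog genes passed this filter, Hhip only through Tc 2D. With 1 library per group there is no replicate check and no p-value, and the 95% intervals given are exact and cover the counting of reads only. Between the 2 ZHBTc4 control libraries, the 9 genes differed by at most 0.44 on the log2 scale (Gli1), and 3.10% of 13407 genes differed by more than 0.58.

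In WT cells, the 9 genes covered a wide range of levels. On the scale of CPM per kb of exon, Ptch1 was highest at 19.0, followed by Gli1 at 14.3, Smo at 10.9 and Gli2 at 7.69. Sufu stood at 3.59, Cdon at 2.45, Gli3 at 1.10, Boc at 0.492 and Hhip at 0.0822. In the ZHBTc4 control libraries, the order differed in its upper part. There Gli2 led with a mean of 14.3 ± 1.27 CPM per kb (SD, n = 2), above Smo at 9.95 ± 1.23, Ptch1 at 8.45 ± 1.02 and Gli1 at 6.39 ± 1.41. The ranges of Smo (9.08 to 10.8) and Ptch1 (7.72 to 9.17) overlapped, as did those of Gli1 (5.39 to 7.39) and Sufu (5.34 to 6.18). Cdon, Gli3, Boc and Hhip followed in the same order as in WT, at 4.25, 1.49, 1.07 and 0.218 CPM per kb, with ranges that did not overlap.

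**Figure D1:**
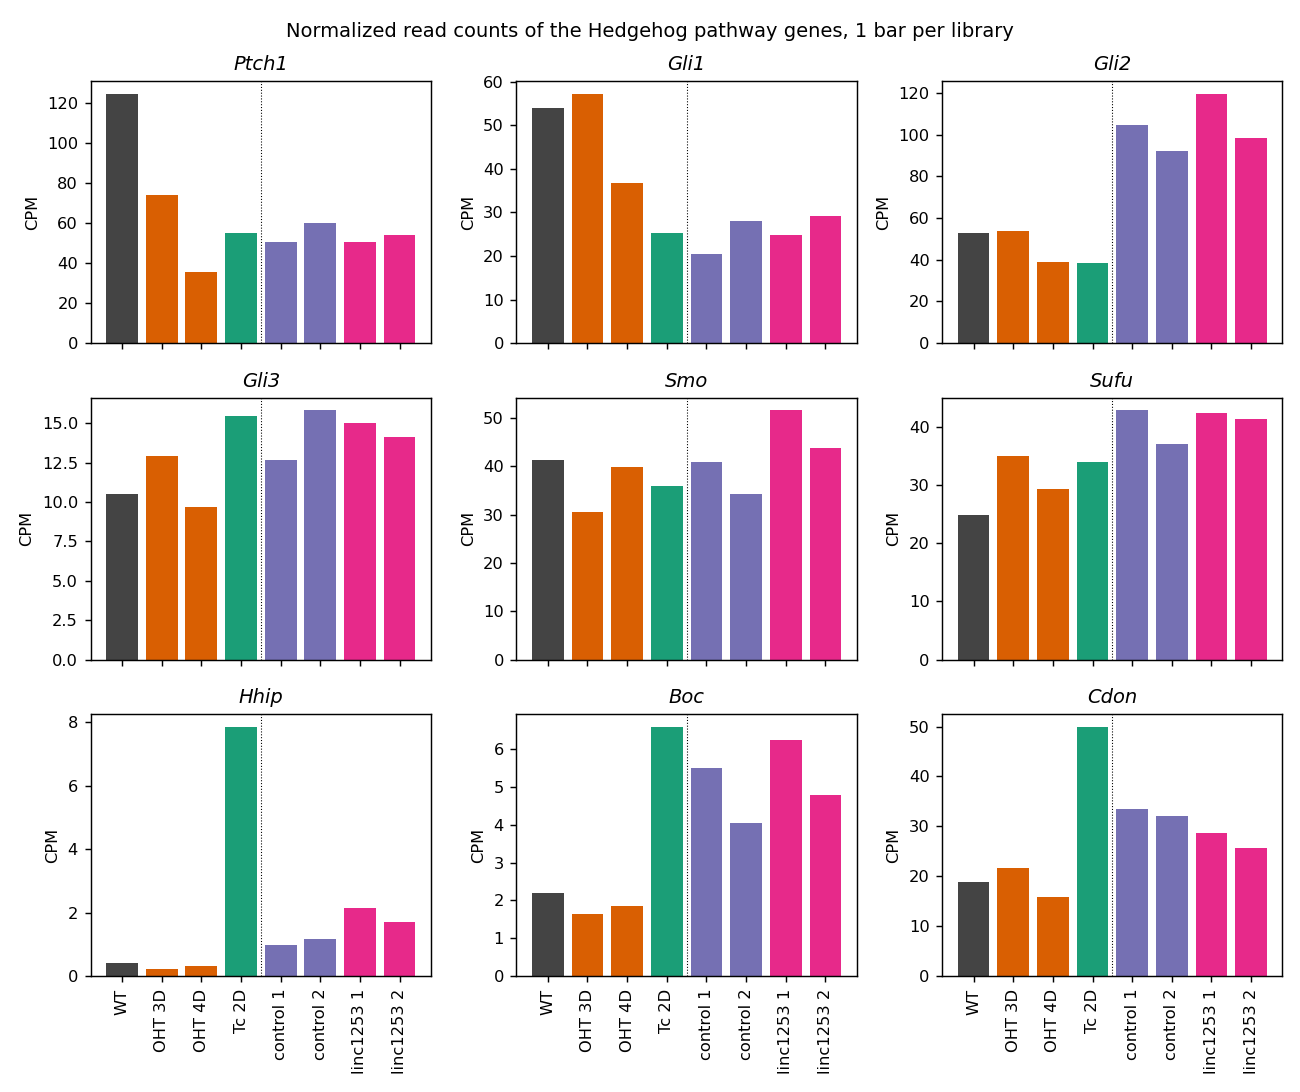
Normalized read counts (CPM, y axis from 0, scale differs by gene) of the 9 Hedgehog genes, with 1 bar for each of the 8 libraries. The dotted line separates the deposited tables; Ptch1 stood at 125 in WT and between 35.8 and 74.1 in all 7 other libraries.

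The comparison of OHT-treated with WT cells asked what follows Pontin depletion. WT is the untreated library, and no vehicle or Cre-only control is among the libraries. OHT, Cre activity and time in culture differ along with Pontin, and their parts cannot be told apart. Ptch1 was the only called Hedgehog gene at each time point, and it was lower. Its normalized read count was 125 in WT (2793 reads), 74.1 on day 3 (1638 reads) and 35.8 on day 4 (817 reads). The log2-fold-change was -0.74 on day 3 and -1.77 on day 4. Without the added 1, the log2 ratio was -0.75 (counting interval -0.84 to -0.66) and then -1.80 (-1.92 to -1.69). Of all expressed genes, 2.89% lay below Ptch1 on day 3 and 0.0744% on day 4. Apart from these libraries, the study also reports lower Ptch1 mRNA in Pontin-depleted cells by quantitative RT-PCR. In bulk samples, fewer cells that express Ptch1 and less Ptch1 mRNA per cell cannot be told apart.

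Among all expressed genes, 5.88% were called lower and 6.01% higher at OHT 3D, and 8.89% lower and 6.48% higher at OHT 4D. Against these shares, 1 of the 9 Hedgehog genes was lower at each time point and 0 were higher, and since Ptch1 was chosen on these contrasts nothing is read from that count. The median log2-fold-change of the 9 genes was 0.03 on day 3 and -0.17 on day 4, beside -0.02 and -0.00326 over all expressed genes.

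The other genes that respond to the signal were not called at either time point. Gli1, the activator whose own transcription is the usual readout of the pathway, was 54.0 CPM in WT, 57.3 on day 3 and 36.8 on day 4. Its log2-fold-changes were 0.08 and -0.54, the latter just inside the threshold. Between day 3 and day 4, Gli1 differed by -0.62, with a counting interval of -0.76 to -0.51 without the added 1. Exons of Gli1 overlap those of Arhgap9 in the annotation, and the library kit does not mark strand, so reads there cannot be assigned to either gene with certainty. Hhip, the secreted and membrane-bound ligand trap, was near its floor, with 9 reads in WT, 5 on day 3 and 7 on day 4. Without the added 1, the log2 ratio of Hhip at OHT 3D was -0.83, with a counting interval of -2.76 to 0.90. At this depth the read counts leave any value within that range possible.

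Of the remaining signal transducers, none passed the threshold after OHT. Gli2, the main activator in response to ligand, was 52.8 CPM in WT, 53.8 on day 3 and 38.8 on day 4, with a log2-fold-change of -0.44 at OHT 4D. Gli3, which mostly acts as a repressor, was 10.5, 12.9 and 9.68 CPM in WT, OHT 3D and OHT 4D. Smo was 41.4, 30.5 and 39.9 CPM, so its value at OHT 3D (-0.43) was not kept at OHT 4D (-0.05). Sufu, the inhibitor that holds Gli proteins in the cytoplasm, was 24.9, 35.0 and 29.3 CPM, with log2-fold-changes of 0.48 and 0.23.

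The co-receptors were also within the threshold. Boc was 2.19, 1.63 and 1.84 CPM in WT, OHT 3D and OHT 4D, resting on 49, 36 and 42 reads. Cdon was 18.9, 21.6 and 15.8 CPM, with log2-fold-changes of 0.18 on day 3 and -0.24 on day 4.

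**Figure D2:**
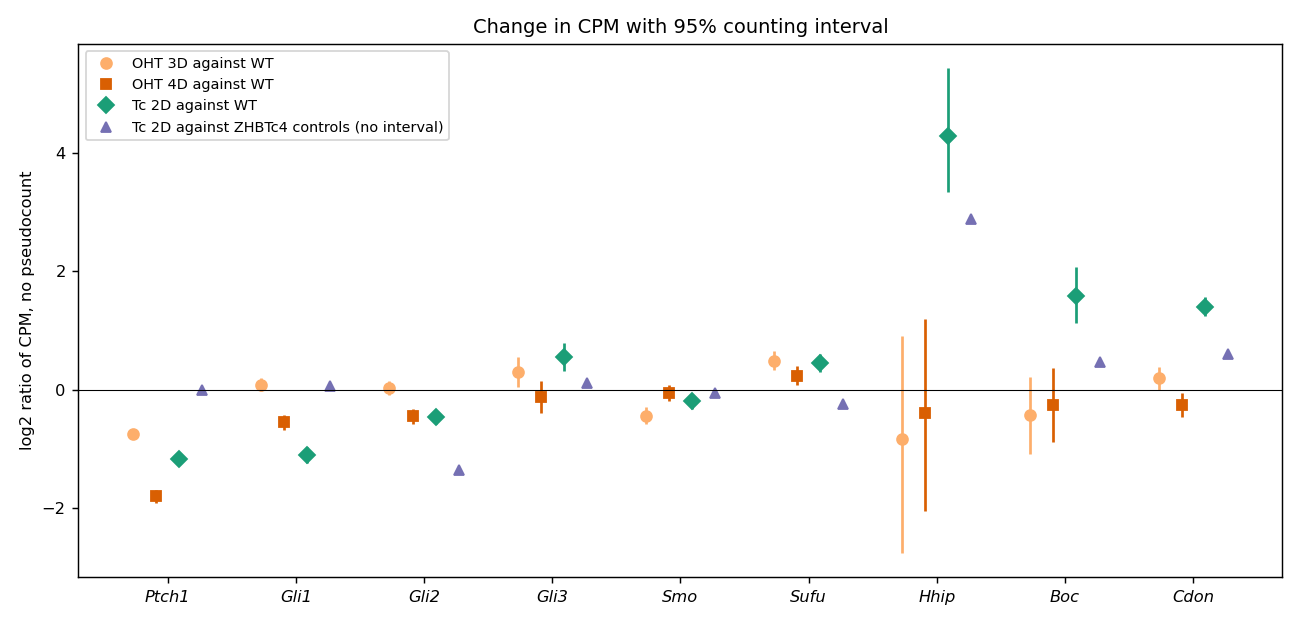
Log2 ratio of CPM without a pseudocount (y axis) for the 9 Hedgehog genes at OHT 3D, OHT 4D and Tc 2D against WT, with 95% counting intervals as lines, and at Tc 2D against the mean of the ZHBTc4 control libraries (triangles, values as deposited, no interval). Ptch1 lay at -0.75 and -1.80 after OHT and at -1.18 at Tc 2D against WT, but at -0.01 against the ZHBTc4 controls.

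A wider list of 65 other pathway genes, in 5 groups, was examined in the same way, and 59 of them passed the filter. At OHT 3D, 5 were higher and 3 lower, beside 6.01% and 5.88% of all expressed genes. At OHT 4D, 3 were higher and 5 lower, beside 6.48% and 8.89%. Nothing is read from these counts. The median log2-fold-change of these 59 was -0.03 on day 3 and -0.17 on day 4. Of 7 ligand and ligand-release genes, 5 passed the filter and 1 was called, Dhh (desert hedgehog), at 0.77 at OHT 3D on a level of only 0.358 CPM in WT and 1.31 at OHT 3D. Dhh passed the filter only through OHT 3D, the library in which it was called. Shh had no read in 7 libraries and 1 read at Tc 2D, below the limit of 3 reads that a count of 0 allows. Of 5 other receptors, Gpc3, a glypican that competes for Hedgehog ligands, was lower at -1.36 on day 3 and -0.66 on day 4. Of 19 regulators of Smo and Gli proteins, Arrb1, a beta-arrestin, was lower at -0.88 and -0.63.

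Of 20 genes of the primary cilium, 1 was higher and 1 lower at OHT 3D, and 3 were lower at OHT 4D. Tctn1, a transition zone protein, was at 0.84 and Ift122, an intraflagellar transport protein, at -0.61 at OHT 3D. At OHT 4D the lower genes were Cep290 (-1.06) and Rpgrip1l (-0.61), both of the transition zone, and Dync2h1 (-0.86), the motor of retrograde transport. At OHT 3D Cep290, Rpgrip1l and Dync2h1 were at 0.27, 0.41 and 0.47, within the threshold and in the other direction. Of 15 genes listed as targets beside Ptch1, Gli1 and Hhip, 11 passed the filter. In this group 3 were higher and 0 lower at both time points, the opposite direction to Ptch1. They were Igf2, a growth factor (2.83 and 3.45), Ccnd2, a cyclin (2.25 and 1.60), and Snai1, a transcription factor of mesenchymal cells (1.26 and 1.34).

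Markers of other cell types moved at the same time points. Of 20 fibroblast markers, 17 passed the filter and 16 were higher at each time point. Among the 16, Col3a1, Col6a3, Postn, Twist2, Prrx1 and Lox passed it only through the OHT libraries in which they were called. Their summed level was 91.6 CPM in WT, 278 on day 3 and 306 on day 4, with Col1a1 at 4.20, 46.5 and 64.6 CPM. Without Fstl1, the most abundant of them in WT, the sums were 36.0, 219 and 254 CPM. Lum and Fap were listed at 0 in WT and at OHT 3D. The summed level of 12 primitive endoderm markers was 113, 239 and 321 CPM. Most of its rise lay in Col4a1 (33.3, 95.6 and 129 CPM) and Col4a2 (17.9, 52.5 and 81.9 CPM). Of 11 that passed the filter, 5 were higher and 1 lower (Hnf4a) on day 3, and 9 and 0 on day 4. Sox17 passed only through OHT 4D. For 10 trophectoderm markers the sum was 85.6, 156 and 325 CPM. Most of this rise lay in Krt8 (19.8, 65.1 and 155 CPM) and Krt18 (17.7, 44.2 and 110 CPM). Of 9 that passed, 5 were higher and 1 lower (Eomes) on day 3, and 6 and 0 on day 4. The summed level of 11 pluripotency genes, among them Oct4, was 3608, 3466 and 3821 CPM. Their part in the values of the Hedgehog genes was not tested.

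By the distance between 3 log2-fold-changes (OHT 3D, OHT 4D and Tc 2D, all against the same WT library), the 5 genes most like Ptch1 among 10367 others with a mean of at least 5 CPM were Ccdc141, Gm1564, Cacna1b, Dtna and Smc1b. The nearest, Ccdc141, was at a distance of 0.51 on the log2 scale, with 21.2, 15.3, 7.40 and 7.75 CPM in WT, OHT 3D, OHT 4D and Tc 2D. The fifth, Smc1b, was at a distance of 0.66, with 21.5, 8.60, 5.30 and 12.7 CPM.

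The comparison of Tc 2D with WT asked what follows Oct4 depletion, but it sets a ZHBTc4 library against the WT library of another line. Against WT, 2 of the 9 genes were lower and 3 were higher, beside 25.8% of all expressed genes lower and 23.9% higher. Ptch1 was lower, with 55.1 CPM (1564 reads) against 125 and a log2-fold-change of -1.17, and Gli1 was lower, with 25.2 CPM against 54.0 and a log2-fold-change of -1.07. Both share the WT value with the comparisons after OHT. Hhip, Cdon and Boc were higher, at 2.66, 1.36 and 1.25.

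Against the ZHBTc4 control libraries, neither Ptch1 nor Gli1 was called lower. Ptch1 stood at 50.8 and 60.3 CPM in the control libraries, on either side of its 55.1 CPM at Tc 2D, and the log2-fold-change was -0.01. Gli1 stood at 20.4 and 28.0 CPM in the controls, again on either side of its 25.2 CPM at Tc 2D, and the log2-fold-change was 0.07. With all 8 libraries on a common median-ratio scale, these values were 0.18 for Ptch1 and 0.25 for Gli1. The line, the infection, the sequencer and the normalization differ along with the control, and their parts cannot be told apart.

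Of the 9 genes, 1 was lower and 2 were higher against the ZHBTc4 controls, beside 30.1% of 13887 genes lower and 17.9% higher. The lower gene was Gli2, with 38.3 CPM at Tc 2D against 104 and 92.1 CPM in the controls, a log2-fold-change of -1.33. Against WT, at 52.8 CPM, the same gene was at -0.45, within the threshold. On the common median-ratio scale Gli2 was at -1.15. Over all genes the median log2-fold-change was -0.17 against the ZHBTc4 controls as deposited and 0.00091 on the common scale, where the numbers of lower and higher genes were 3262 and 3302 instead of 4186 and 2483.

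Hhip was higher at Tc 2D by either control. It rested on 223 reads (7.86 CPM) at Tc 2D, on 9 reads (0.402 CPM) in WT, and on 21 and 27 reads (0.969 and 1.16 CPM) in the ZHBTc4 controls. The log2-fold-change was 2.66 against WT and 2.10 against the ZHBTc4 controls, and 99.2% and 99.0% of the genes tested lay below it. Against WT, Hhip passed the filter only through Tc 2D, the library in which it was called. The log2 ratio without the added 1 was 4.29 against WT, with a counting interval of 3.34 to 5.44.

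The co-receptors were highest at Tc 2D among all 8 libraries. Cdon was 50.0 CPM at Tc 2D, 18.9 in WT, and 33.5 and 32.0 in the ZHBTc4 controls, so its log2-fold-change was 1.36 against WT and 0.60 against the controls, just past the threshold. Boc was 6.59 CPM at Tc 2D, 2.19 in WT, and 5.49 and 4.04 in the controls, with log2-fold-changes of 1.25 and 0.41. Against single control libraries as deposited, Cdon was at 0.56 and 0.63 and Boc at 0.23 and 0.59, so each call depended on the library used. With both controls on the common median-ratio scale, Cdon was at 0.78, past the threshold, and Boc at 0.57, just within it. Gli3, Smo and Sufu stayed within the threshold against both controls, at 0.51, -0.19 and 0.43 against WT and at 0.12, -0.06 and -0.22 against the ZHBTc4 controls.

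In the wider list, 17 of 59 were higher and 10 lower at Tc 2D against WT, beside 23.9% and 25.8% of all expressed genes. Against the ZHBTc4 controls 13 were higher and 14 lower, beside 17.9% and 30.1%. On the common scale, the latter counts were 18 and 11. The largest values among ligand-release genes were those of Scube1, at 1.60 against WT and 0.69 against the ZHBTc4 controls, and Scube3, at 0.71 and 1.63. Both encode secreted proteins that help release ligand. Among receptors, Lrp2 (megalin, an endocytic receptor) was at 2.66 and 2.75 and the co-receptor Gas1 at 1.19 and 1.16.

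Of 19 regulators, 3 were higher and 1 lower against WT, and 0 were higher and 4 lower against the ZHBTc4 controls. On the common scale 3 were higher and 3 lower. Evc, a ciliary protein that works with Smo, was lower by each control (-2.08 and -1.21). Of 20 cilium genes, 6 were higher and 2 lower against WT, and 4 were higher and 3 lower against the ZHBTc4 controls. On the common scale 6 were higher and 2 lower. Tctn1 was at 1.40 and 0.75, Arl13b, a small GTPase of the ciliary membrane, at 1.14 and 0.63, and Cep290 at 1.08 and 0.84, whereas Ift46 was at -1.31 and -0.67, the latter within the threshold on the common scale (-0.48). The largest value against the ZHBTc4 controls was that of Ift20, at -1.10. Of the 11 target genes tested, 4 were higher and 6 lower by either control. The higher count includes a gene at 0 CPM in WT and 1.37 CPM at Tc 2D, which passed the filter only through Tc 2D. Igf2 was higher at 6.66 and 4.44, and Ccnd1 (-3.45 and -3.56), a cyclin, and Sfrp1 (-3.16 and -3.18), a secreted Wnt antagonist, were lower. Olig2 was lower at -3.24 against WT and -0.92 against the ZHBTc4 controls, where it was at 0 and 3.66 CPM.

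At Tc 2D the summed level of the 11 pluripotency genes was 674 CPM, that of the trophectoderm markers 486 CPM, that of the primitive endoderm markers 427 CPM and that of the fibroblast markers 103 CPM. In the ZHBTc4 controls the trophectoderm markers summed to 108 and 106 CPM. Of 9 trophectoderm markers that passed the filter, 8 were higher against WT and 7 against the ZHBTc4 controls. Their part in the levels of Hhip, Cdon and Boc was not tested.

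The comparison of linc1253 knockdown with the control lentivirus rested on 2 libraries in each group, and nothing in the labels says that these came from separate cultures, so its p-values measure only the spread between these libraries. By limma with trend and Benjamini-Hochberg adjustment, 0 of the 9 Hedgehog genes and 0% of 13407 genes were called, with a smallest adjusted p of 0.265. The quasi-likelihood test of edgeR on the recovered reads also called 0 genes, and DESeq2 called 22 higher and 28 lower genes, of which 0 were Hedgehog genes. DESeq2 gave no adjusted p for Hhip. At an unadjusted p under 0.05, limma had 496 genes higher and 503 lower (7.45%), with Smo and Hhip among the higher.

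Ptch1 did not pass the threshold, with 50.8 and 60.3 CPM in the controls and 50.8 and 54.0 CPM after knockdown. Its limma log2-fold-change was -0.08 (SE 0.12, adjusted p = 0.903). Smo had 40.9 and 34.3 CPM in the controls and 51.7 and 43.8 CPM after knockdown, with a log2-fold-change of 0.34 (SE 0.13, limma adjusted p = 0.648). Hhip had 0.969 and 1.16 CPM in the controls and 2.14 and 1.71 CPM after knockdown, on 83 and 39 reads, with a log2-fold-change of 0.50 (SE 0.17, limma adjusted p = 0.631). Cdon had 33.5 and 32.0 CPM in the controls and 28.8 and 25.7 CPM after knockdown, with a log2-fold-change of -0.26 (SE 0.11, limma adjusted p = 0.669). The groups did not overlap for these last 3 genes, beside 38.0% of all genes tested, and none passed the adjusted threshold.

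The other 5 genes had overlapping groups. Their log2-fold-changes were 0.16 for Gli1, 0.15 for Gli2, 0.04 for Gli3, 0.07 for Sufu and 0.18 for Boc, with standard errors from 0.11 to 0.19. Of the 65 other pathway genes 56 were tested, and 0 were called in either direction. The fibroblast markers summed to 277 and 234 CPM in the controls and to 337 and 314 CPM after knockdown. Without Fstl1 alone, the sums were 108 and 92.4 CPM in the controls and 111 and 128 CPM after knockdown. The primitive endoderm markers summed to 198 and 197 CPM in the controls and to 185 and 271 CPM after knockdown. The part of these markers in the values of Smo, Hhip and Cdon was not tested.

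**Figure D3:**
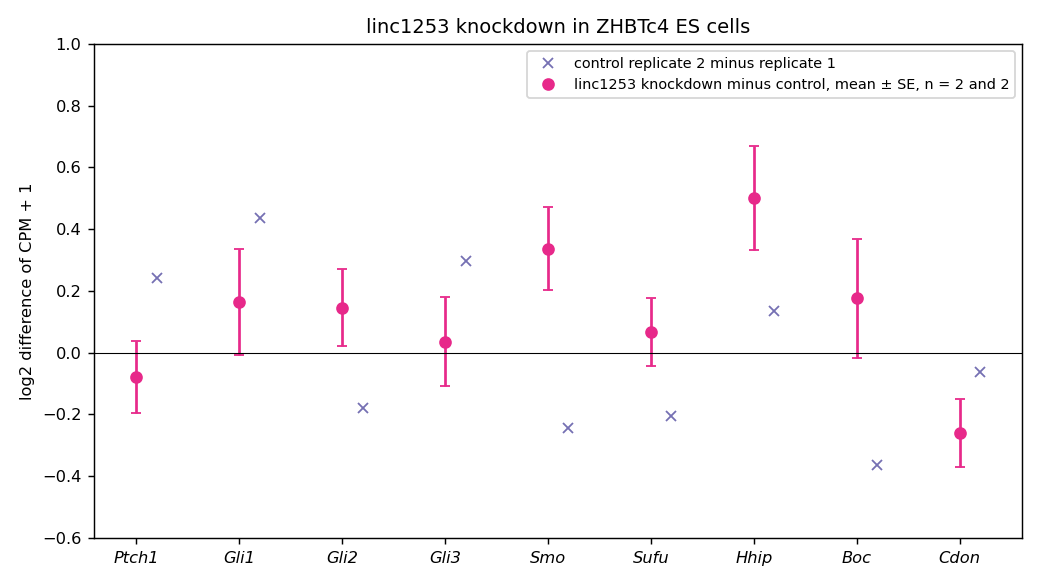
Log2 difference of CPM plus 1 (y axis) between linc1253 knockdown and control for the 9 Hedgehog genes (circles, mean with standard error from limma, n = 2 per group) beside the difference between the control libraries (crosses). Hhip at 0.50 and Smo at 0.34 were the highest and Cdon at -0.26 the lowest.

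The ChIP-sequencing asked where Pontin sits on chromatin of untreated ZHBTc4 cells, with 40729076 Pontin reads and 17185883 GFP reads. For each gene, the log2 ratio of Pontin over GFP reads in the promoter window was scaled by library size. Of the 9 Hedgehog promoters, 3 had a log2 ratio above 1, Cdon, Sufu and Gli2, beside 14.4% of the 21193 promoters covered by both antibodies, whose median was 0.34. There is 1 library per antibody and no test. Intervals are exact, from fragments with both mates counted once, and cover counting error only. Over fragments, Boc and Gli1 also lay just above 1, at 1.02 and 1.01, but fragments were not counted for all promoters.

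Ptch1 had the lowest ratio of the 9 over all reads at the gene start, with 96 Pontin reads and 34 GFP reads. Its log2 ratio was 0.25 over reads and -0.10 over fragments (counting interval -0.83 to 0.68), and 44.6% of promoters lay below the former. Its place was not the lowest with 1 read per position and strand (Ptch1 0.54, Hhip 0.18), within 1 kb of the start (Ptch1 0.86, Boc 0.077) or at the CCDS start (Ptch1 0.34, Hhip 0.31). At the CCDS start, next to the intronic sequence printed above, Ptch1 had 84 Pontin and 28 GFP reads, a log2 ratio of 0.34, equal to the median of all promoters. In the 500 b just upstream of the gene start, which hold the printed Gli consensus, there were 28 Pontin and 3 GFP reads. The next 500 b upstream held 22 and 8 reads, and the 500 b from 4500 to 5000 b downstream, away from that match, 37 and 2. These counts are not scaled by library size, and nothing is read from single bins.

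Cdon had 87 Pontin and 7 GFP reads, a log2 ratio of 2.39, and over fragments the interval was 0.92 to 4.30. Sufu had 120 and 14 reads, a log2 ratio of 1.85 (0.77 to 3.27 over fragments), and Gli2 had 88 and 11 reads, a log2 ratio of 1.76 (0.53 to 3.27). The median promoter had 74 Pontin and 25 GFP reads. The Pontin reads of Cdon and Gli2 were thus nearer to the median than their GFP reads, which were far below it. Around the gene start of Cdon, the 500 b bin with most Pontin reads (25 reads) lay from 3000 to 3500 b downstream, outside the promoter window.

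At the other promoters the fragment intervals of Boc, Smo, Gli3 and Hhip included 0. Their log2 ratios over reads were 0.96, 0.84, 0.67 and 0.31, and that of Gli1 was 0.77 (0.13 to 2.00 over fragments). Gli3 depended on the start used, with 68 Pontin and 18 GFP reads at the gene start and 75 and 10 reads at its CCDS start, where the log2 ratio was 1.66. So did the genes above 1 at the gene start. At further annotated transcript starts Cdon was at 0.94, 0.10 and 0.34, Sufu at 0.96 and -0.22, and Gli2 at 0.72. Ptch1 was at 0.84 and 0.74 at its further starts. Ptch1, the only one of these genes called at OHT 3D and OHT 4D, was not among those with a log2 ratio above 1. Cdon, Sufu and Gli2 were within the fold threshold at both OHT time points. The ChIP libraries came from ZHBTc4 cells and the OHT libraries from the other line, and Ptch1 was chosen on its OHT values. A relation between the ChIP ratio and the change after OHT was not tested.

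**Figure D4:**
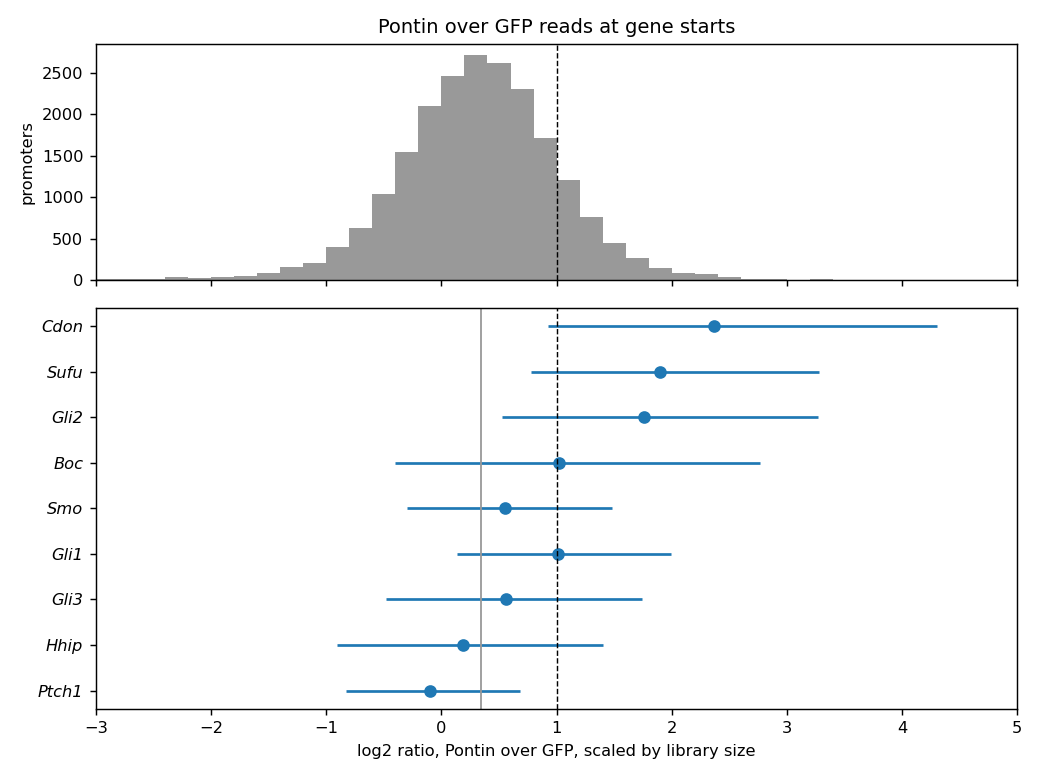
Log2 ratio of Pontin over GFP (x axis, scaled by library size) for all promoters as a histogram over reads (top) and for the 9 Hedgehog promoters over fragments with 95% counting intervals (bottom). The dashed line marks a log2 ratio of 1 and the grey line the median of all promoters, 0.34; Cdon, Sufu and Gli2 lay highest and Ptch1 lowest, at -0.10 over fragments.

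**Figure D5:**
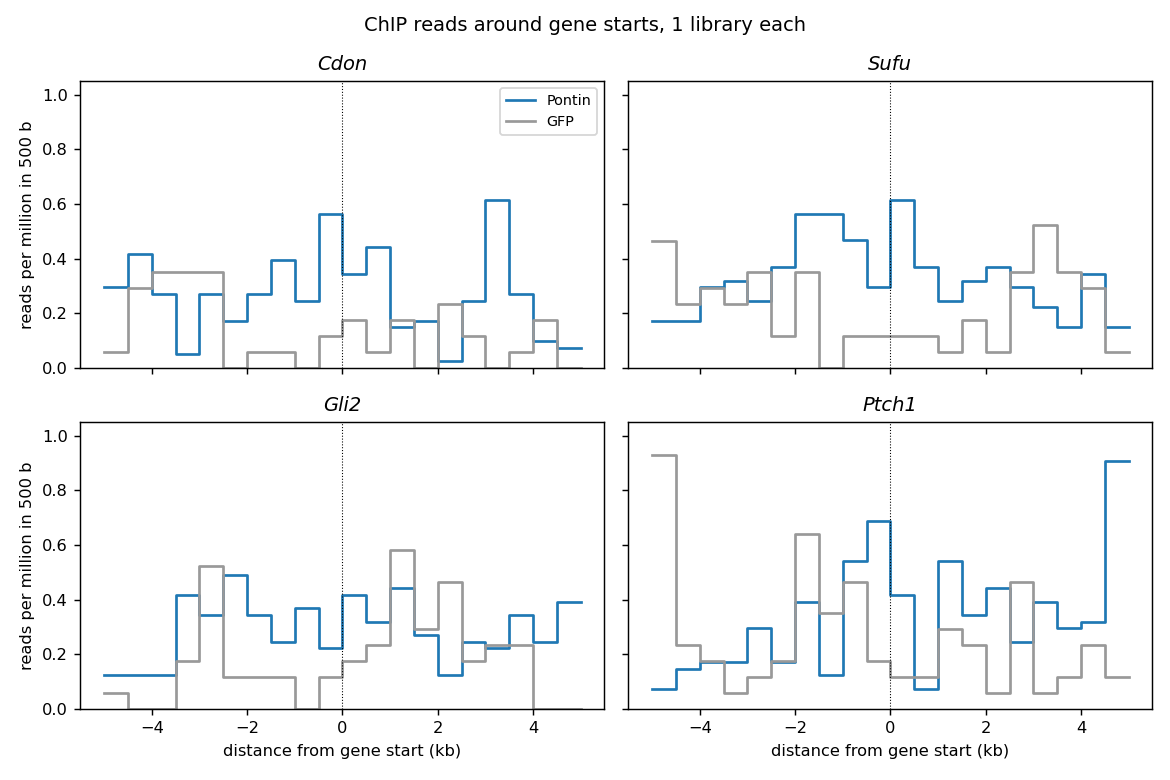
ChIP reads scaled to library size (RPM) in bins of 500 b (y axis) from 5 kb upstream to 5 kb downstream of the gene start (x axis, in the direction of transcription) for Cdon, Sufu, Gli2 and Ptch1, with 1 Pontin and 1 GFP library. Bins held few reads, at most 25 Pontin reads for Cdon and Sufu, 20 for Gli2 and 37 for Ptch1.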

How the data were processed

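The authors deposited mRNA-sequencing values as CPM. Per their methods, adapters and low-quality ends were removed, TopHat placed the reads on NCBIM37, HTSeq counted them per gene, and counts were scaled by TMM in edgeR. The values lie in 2 tables, which were taken here as scaled separately. The values stood for whole reads within 0.01 read (100% of values), and these recovered reads gave the counting intervals and count tests. The deposited ChIP files hold 1 line per Bowtie2-aligned read with its mapping quality score, of which the lowest was 6 for Pontin and 5 for GFP, and duplicates were kept. Mates that shared a read name were also counted once, as fragments.

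Symbols matched 22337 of 22713 IDs. Promoters and motifs used the NCBIM37 genome and its annotation. The members and gene lists were chosen with earlier results of these data known. All 9 members were reported, with at most 4 called genes per pathway group, taken from the largest changes against WT, though not every gene the rule allows, and the 5 genes nearest to Ptch1. The values of 1 gene that the rule selects are not reported here. Shh and the individual cell type markers in the text were named after their values were seen. Disp1, Foxl1, Tfap2a, Tfap2c, Sox1 and Tfcp2l1 were not analysed here. A set of 7 neural markers summed to 106 CPM in WT, 91.2 and 147 after OHT, and 25.7 at Tc 2D.

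The fold threshold of 0.58, the filter above 1 CPM and the added 1 follow the study's methods. For linc1253, a trended limma 3.58.1 model used log2 of CPM plus 1, and edgeR 4.0.16 and DESeq2 1.42.0 (R 4.3.3) were alternatives. Each test and fold call was tested on simulated data. Other steps ran in Python 3.11.15 (pandas 2.3.3, numpy 2.4.6, scipy 1.17.1, matplotlib 3.10.9). Reads carried no molecular identifiers and are not independent molecules, so intervals cover counting error only.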

Additional observations from a re-analysis of the deposited data

How the results depend on the processing

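With a pseudocount of 0.5 or 3, no filter, a filter at 5 CPM or median-ratio scaling, the counts of Hedgehog genes called at OHT 3D, OHT 4D and Tc 2D did not change. Above an absolute log2-fold-change of 1, 0 genes were called lower at OHT 3D. With the ZHBTc4 control libraries as control, 1 gene was called lower at Tc 2D, as deposited, on the common scale or with either library alone, and with replicate 1 alone 1 was called higher. That single-library control, the CCDS start and the count of fragments were chosen after seeing the data. Gli1 reversed at 0.072, 0.25 (common scale) and 0.29 (replicate 1), and Ptch1 at 0.18 (common scale) and 0.12 (replicate 1). For Pontin ChIP, 5 promoters were above a log2 ratio of 1 within 1 kb either side of the gene start, 5 over fragments, 4 at the CCDS start or with 1 read per position and strand, and 3 with the median ratio as scale. The share of 14.4% of all promoters holds only for the main window over all reads. No share is given for these alternatives, so nothing is read from their counts.

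After linc1253 knockdown, 0 Hedgehog genes were called under every alternative except the replicate block. Replicates of the same number deviated together (correlation 0.67 over 13407 genes), but with 2 pairs, and nothing in the labels that ties the numbers, they share only a number. With the replicate block, 2 Hedgehog genes were called higher, Smo and Hhip, and 1 lower, Cdon (adjusted p 0.00152, 0.0409 and 0.0192), beside 14.6% of all genes. Without 1 library in turn, Ptch1 ranged from -0.20 to 0.043, Gli1 from -0.054 to 0.38, Gli3 from -0.11 to 0.18, Sufu from -0.035 to 0.17 and Boc from -0.00493 to 0.36, each with a change of sign, while Gli2 ranged from 0.0067 to 0.28, Smo from 0.21 to 0.46, Hhip from 0.39 to 0.61 and Cdon from -0.34 to -0.18. The lone library left in a group was assumed to vary like the others. Gli3 was -0.00533 without knockdown replicate 1. Depth limits Hhip and Boc in the libraries of the first table and all ChIP ratios, which rest on 7 to 34 GFP reads.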
